A study of Mus musculus with 106 samples.

Results

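The genes of the mitochondrial ribosomal proteins were read by bulk RNA sequencing in mouse tissues from animals housed at 10, 22 or 34 °C. Members were taken by name alone, as every gene whose symbol begins with Mrpl or Mrps and a number, pseudogenes left out. This gave 78 genes of the 25872 names in the count tables. Of these, 49 were named Mrpl, for the large subunit, and 29 Mrps, for the small one. All 78 were listed in the largest table and 76 in every table, where Mrpl57 and Mrpl58 carried their older symbols Mrp63 and Ict1 in the others. The genes are protein coding and lie on 17 chromosomes of GRCm38.

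The mice were C57BL/6J or, by the labels of the cold libraries, C57BL/6 males, wild type in every group and 8 weeks old when the housing began. The cold groups spent 5 days at 18 °C, then 5 at 14 °C and then 2 weeks at 10 °C, and the warm groups 4 weeks at 34 °C. Each was set against mice at 22 °C, and the labels give an age of 11 weeks for the cold tissues and 12 weeks for the warm tissues and all quadriceps. Most groups held 3 libraries, and most libraries pooled 2 mice. Bone marrow (6 a group) and spinal cord (5 a group) came from single mice, while the warm brown fat held 3 single mice at 22 °C and 2 single mice and 1 pool at 34 °C. In all, 106 libraries in 31 groups gave 16 comparisons, 11 at 10 °C and 5 at 34 °C. Inguinal subcutaneous fat (ingSAT) and perigonadal visceral fat (pgVAT) at 34 °C were not analysed here.

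Mitochondria carry their own ribosome, which translates only the few proteins encoded by mitochondrial DNA, all of them subunits of the respiratory chain and ATP synthase. Its RNA comes from the mitochondrial genome, whereas every protein of it is encoded in the nucleus, made in the cytosol and imported. Part of these proteins descend from the bacterial ribosome and the others were gained in mitochondria. Brown adipocytes are packed with mitochondria and burn fuel there for heat through the uncoupling protein UCP1, and inguinal fat of cold mice can gain cells of this kind. In these bulk samples, fewer cells of a type and less RNA per cell cannot be told apart.

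Promoters are shown for 3 of the 6 members that passed the test in interscapular brown fat (iBAT) at both temperatures and in ingSAT in the cold. The 6 were picked after the tests were run. Mrpl20 encodes the counterpart of bacterial L20 in the large subunit, Mrps11 that of bacterial S11 in the small one, and Mrps22 a small subunit protein gained in mitochondria. The sequences are RefSeq promoters on GRCm38.p6, from 250 bases before to 50 bases after the start of the gene, on the strand of the gene. They lie at chr4:155802628-155802927 (plus strand), chr7:78782881-78783180 (plus) and chr9:98601630-98601929 (minus). Capitals mark the motif matches.
Mrpl20: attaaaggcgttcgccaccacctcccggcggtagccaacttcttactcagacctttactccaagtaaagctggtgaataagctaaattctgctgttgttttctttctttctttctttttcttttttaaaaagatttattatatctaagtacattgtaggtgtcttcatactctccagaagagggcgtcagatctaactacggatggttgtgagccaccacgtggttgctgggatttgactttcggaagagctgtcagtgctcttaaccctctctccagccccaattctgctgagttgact
Mrps11: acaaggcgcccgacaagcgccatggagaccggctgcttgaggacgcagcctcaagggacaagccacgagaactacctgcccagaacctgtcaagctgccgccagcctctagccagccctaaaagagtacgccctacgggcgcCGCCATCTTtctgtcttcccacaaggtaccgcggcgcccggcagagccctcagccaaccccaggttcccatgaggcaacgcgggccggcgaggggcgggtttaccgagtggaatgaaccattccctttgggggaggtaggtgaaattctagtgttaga
Mrps22: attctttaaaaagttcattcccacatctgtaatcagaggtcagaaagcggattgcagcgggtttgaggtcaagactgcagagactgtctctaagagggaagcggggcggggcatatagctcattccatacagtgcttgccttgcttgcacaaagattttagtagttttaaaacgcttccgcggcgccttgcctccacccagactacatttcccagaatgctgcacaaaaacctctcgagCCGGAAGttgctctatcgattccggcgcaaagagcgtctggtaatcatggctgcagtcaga

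Searched on both strands were CGCATGCG for NRF1, CCGGAAG for the ETS factor GABPA, AAGATGGCG for YY1 and TCAAGGTCA, a site of the ERR receptors. These factors are known regulators of nuclear genes for mitochondria. The Mrps11 window held the YY1 letters on the opposite strand, 108 bases before the start, and the Mrps22 window the ETS letters 11 bases before it. The Mrpl20 window held none of the 4. Neither did the windows of Mrpl46, Mrpl50 and Mrps2, which passed the same tests and are not shown. The RefSeq table had promoters for 69 of the 78 members. The ETS letters were in 36.2% of these, against 9.12% of all 27025 promoters of the same length, those of NRF1 in 10.1% against 1.91%, those of YY1 in 11.6% against 1.49%, and the ERR site in 0 of 69 against 0.407%. At least 1 of the 4 was found in 35 members (50.7%, against 12.2% of all promoters). Members with the ETS letters had a median log2 fold change in cold ingSAT of 0.50, and those without had 0.46. In iBAT these medians were 0.20 and 0.23 at 10 °C, and -0.35 and -0.29 at 34 °C. A match is a description of the letters, not a binding site. Mrps11 shares its start region with Mrpl46, which runs the other way and begins 42 bases from it.

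The 76 libraries of the cold set, its 22 °C controls included, held between 4262403 and 58290770 counts each (median 17501041), and the 30 of the warm set between 29545458 and 62880248 (median 41889787). No pair of libraries within a group held the same counts. One brain library stood apart. In replicate 2 at 22 °C the summed level of the hepatocyte markers was 63860 CPM (counts scaled to the size of each library), against 733.2 to 1101 in the other brain libraries of that comparison, and the group mean listed by the authors leaves it out (1960 of 1960 genes matched the mean of replicates 1 and 3). For the cold brain comparison, the member median, the number of members with a positive fold change and the count called by edgeR are also given without it. All other values of that comparison include it. Where nothing else is said, CPM are scaled with TMM factors, folds and standard errors (SE) come from edgeR's quasi-likelihood F-test on the counts, and a gene was called when its p, with Benjamini-Hochberg adjustment across every gene tested in that comparison, was under 0.05. The tissues were checked by fixed marker lists of 4 genes each (5 for skeletal muscle). The lists with called markers are given for each comparison in which members were called.

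Some members stood at unlike levels in different tables. In iBAT at 22 °C, the median member was 1.18 times as high in the warm table as in the largest one, but Mrps36 was at 97.8 against 10.4 CPM, Mrpl23 at 24.5 against 3.36 CPM and Mrps34 at 73.7 against 11.3 CPM. Mrps36 has 3 annotated pseudogenes and Mrpl23 has 1, while Mrps34 shares 763 exon bases with Nme3 on the same strand. Mrpl48 also has 1 annotated pseudogene and was 2.13 times as high in the warm table. The tables also differed in library kit, instrument, supplier, age and pooling of the mice, and the cause was not tested. Levels were therefore compared only within a table, and each fold only uses libraries of its own table. In all, 33 of the 78 members share exon bases with another annotated gene, 23 of them with a protein coding one. The strand setting of the counting is not given in the sources used here, so that reads in these stretches cannot be assigned with certainty. Among the genes named below, Mrpl46 and Mrps11 overlap each other by 173 bases on opposite strands, Mrpl47 overlaps Ndufb5 by 616 bases and Actl6a by 452, Mrpl43 overlaps Twnk by 507, and Mrps27, Mrps18b and Mrpl12 overlap noncoding genes by 506, 638 and 200 bases.

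At 22 °C, the genes stood highest in brown fat. The summed level of the 76 members found in all tables was 4946 ± 239 CPM in iBAT (SD, n = 3), followed in the largest table by ingSAT (2475 ± 289), pgVAT (2471 ± 274), brain (2363 ± 135, with replicate 2), spleen (2299 ± 173), hypothalamus (2101 ± 33.2), liver (2033 ± 95.6) and ileum (2005 ± 95.7). Below iBAT, neighbours in this order lay within their SDs of each other, except spleen and hypothalamus. In the warm table the sum was 6257 ± 511 CPM in iBAT, 3110 ± 270 in quadriceps, 2495 ± 74.1 in liver, 2010 ± 72.3 in brain and 1938 ± 44.4 in ileum. Bone marrow stood at 1996 ± 64.1 CPM (n = 6) and spinal cord at 2128 ± 40.4 CPM (n = 5) in their own tables. Per kilobase of exon, iBAT was the highest of 8 tissues for 68 of 76 members and the highest of 5 tissues for 72 of 76. Mrpl34, the counterpart of bacterial L34, showed a wide range in the largest table, from 24.4 CPM per kilobase in hypothalamus to 212 in iBAT, 8.71 times higher.

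The first comparison asked what cold did in ingSAT. Of the 78 mitochondrial ribosomal protein genes, 25 were called higher there and 0 lower, against 4.61% of all 13982 genes called higher. At an unadjusted p under 0.05, 60 members were higher and 0 lower, edgeR's exact test called 30 higher, and DESeq2 called 37 higher and 0 lower. For ingSAT and iBAT, shares of all genes called are given only for the quasi-likelihood F-test and the study's limits. Counts by an unadjusted p, other tests, other scalings or fewer libraries have no such share beside them. Within the limits the study used (a fold over 1.5 and an unadjusted p no higher than 0.05), 28 members were higher, against 7.2% of all genes. The median log2 fold change of the members was 0.46 (a fold of 1.38), with 76 of 78 above 0, while the median over all genes was -0.01 and 49.3% of genes lay above 0. Mrpl49 (-0.07) and Mrps6 (-0.17) were the 2 below 0. The summed level went from 2439, 2443 and 2681 CPM at 22 °C to 3708, 3607 and 3570 CPM at 10 °C, a difference of 43.9% with no overlap. All libraries at 10 °C stood above all those at 22 °C.

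Mrpl42, a large subunit protein gained in mitochondria, had the largest rise. It stood at 33.3, 38.1 and 43.8 CPM at 22 °C and at 93.8, 87.9 and 86.8 CPM at 10 °C, a log2 fold change of 1.22 (SE 0.13, adjusted p = 0.00662). The groups were far apart, and the libraries at 10 °C lay close to each other. Mrpl47, related to bacterial L29, went from 13.6, 13.9 and 18.1 to 38.7, 35.6 and 31.3 CPM (log2 fold change 1.21, SE 0.16, adjusted p = 0.0106). Mrps22 went from 25.1, 24.6 and 26.8 to 57.9, 59.4 and 48.5 CPM (1.11, SE 0.12, adjusted p = 0.00687). In both genes the lowest cold library lay well above the highest one at 22 °C. Mrpl12, the counterpart of the bacterial stalk protein L7/L12, which is also reported to bind the mitochondrial RNA polymerase, went from 42.0, 27.1 and 36.5 to 78.5, 78.2 and 69.9 CPM (1.10, SE 0.17, adjusted p = 0.0160).

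Of the other large subunit proteins with bacterial counterparts, Mrpl35 rose from 25.8, 24.6 and 32.4 to 57.3, 62.2 and 52.0 CPM (1.05, SE 0.14) and Mrpl30 from 65.4, 68.0 and 95.4 to 155.3, 161.0 and 150.2 CPM (1.03, SE 0.16). In Mrpl30, replicate 3 at 22 °C was the highest of its group but stayed well below the cold libraries. Mrpl34 rose by 0.88 (SE 0.12) and Mrpl20 by 0.86 (SE 0.14), with adjusted p values of 0.0122 and 0.0178. Mrpl50, gained in mitochondria, went from 38.2, 39.3 and 42.8 to 88.1, 75.5 and 76.8 CPM (0.998, SE 0.11, adjusted p = 0.00732). In the small subunit, Mrps2, the counterpart of bacterial S2, rose from 27.5, 27.6 and 21.2 to 49.9, 46.8 and 45.3 CPM (0.90, SE 0.14, adjusted p = 0.0154). The groups of all 25 called members did not overlap, as those of 100% of the genes called higher. Over all members tested, 65 of 78 were higher without overlap (83.3%), against 16.4% of all genes.

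The size of this count rested on single libraries. Without replicate 3 at 10 °C only Mrps22 was called, without replicate 1 or 2 at 10 °C 16 and 4 members, without replicate 1 or 2 at 22 °C 7 and 5, and without replicate 3 at 22 °C 47. The member median stayed between 0.43 and 0.54. Brown adipocyte markers moved with the members: all 4 of the list were called higher, and their summed level went from 68.6 to 126 CPM at 22 °C to 1926 to 2524 CPM at 10 °C. The skeletal muscle markers were at 2682, 2668 and 1034 CPM at 22 °C and at 1154, 22.01 and 1568 CPM at 10 °C. Neutrophil precursor markers went from 17.7 to 35.4 CPM at 22 °C to 5.25 to 10.7 CPM at 10 °C, with 1 of 4 called lower. Their part in the result was not tested.

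**Figure D1:**
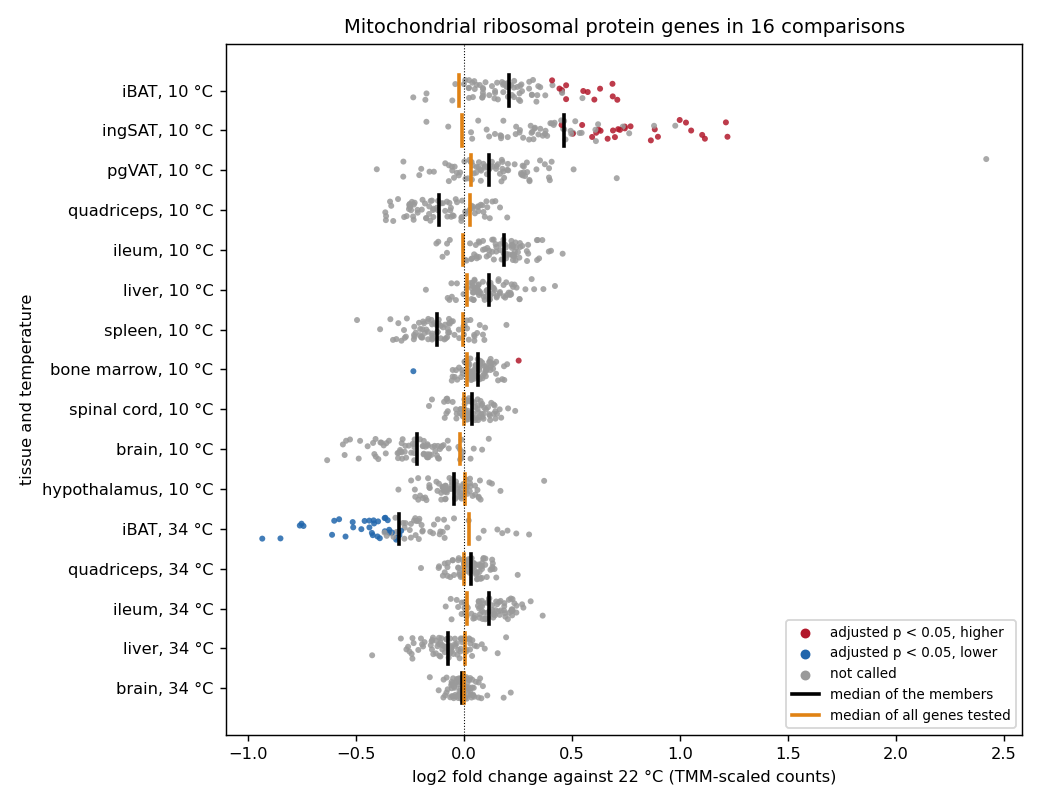
Log2 fold change of each member in the 16 comparisons, each 10 °C or 34 °C group against its own 22 °C group, with 1 point a member (red where called higher, blue where called lower), a black bar at the member median and an orange bar at the median of all genes. Members in ingSAT and iBAT at 10 °C lay mostly above 0, with medians of 0.46 and 0.21, and those in iBAT at 34 °C mostly below it, with a median of -0.30.

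In iBAT at 10 °C, 12 of 78 members were called higher and 0 lower, against 6.22% of all 12791 genes called higher. A total of 27 members had an unadjusted p under 0.05, all of them higher, and edgeR's exact test and DESeq2 called 16 each, also all higher. No share of all genes stands beside these counts or the one by library size below. By the study's limits 5 were higher, against 6.0% of all genes: Mrpl54, Mrps2, Mrpl47, Mrpl20 and Mrpl50. The member median was 0.21 (a fold of 1.15) with 72 of 78 above 0, against -0.02 and 47.1% over all genes. The summed level was 4728, 4607 and 4950 CPM at 22 °C and 5660, 5527 and 5710 CPM at 10 °C, a difference of 18.3% with no overlap. Scaling by library size alone moved the median of all genes to -0.18. The member median was then 0.05, which is 0.23 above that of all genes, as with TMM, and 5 members were called.

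Mrpl54, a large subunit protein gained in mitochondria, had the largest rise in iBAT, from 43.5, 47.7 and 49.6 to 80.2, 76.0 and 74.2 CPM (log2 fold change 0.71, SE 0.10, adjusted p = 0.00413). Mrps2 went from 65.7, 62.2 and 84.2 to 110.7, 118.9 and 112.6 CPM (0.69, SE 0.13, adjusted p = 0.0129). Mrpl47 went from 45.6, 36.7 and 39.9 to 70.4, 58.6 and 67.6 CPM (0.69, SE 0.12, adjusted p = 0.0100). In each of these genes the lowest cold library lay above the highest one at 22 °C. Mrpl20 stood at 80.7, 74.1 and 86.0 CPM at 22 °C and at 134.1, 109.0 and 129.4 CPM at 10 °C (0.63, SE 0.12, adjusted p = 0.0124), and Mrpl50 at 104.0, 84.7 and 75.2 against 144.7, 114.4 and 141.1 CPM (0.60, SE 0.15, adjusted p = 0.0340). Mrpl50 came nearest to an overlap, with 104.0 and 114.4 CPM as its closest libraries.

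The partners at the shared start rose together, Mrpl46 by 0.57 (SE 0.11) and Mrps11 by 0.47 (SE 0.11), although their overlapping exons may carry common reads. Mrps22 rose by 0.55 (SE 0.12), Mrpl43, a large subunit protein gained in mitochondria, by 0.47 and Mrps27, a small subunit protein of the pentatricopeptide repeat family, by 0.45, all with adjusted p values from 0.0143 to 0.0306. Also called were Mrpl51 (0.44) and Mrps5 (0.41). None of the 12 had overlapping groups, and neither had 99.9% of all genes called higher. Of the 78 members, 35 were higher without overlap (44.9%), against 16.4% of all genes. Without replicate 2 at 22 °C only Mrpl54 was called, and without replicate 3 at 10 °C Mrpl54, Mrps2 and Mrpl47. Leaving out each of the other libraries left 9 to 18, and the member median ran from 0.18 to 0.23. Brown adipocyte markers summed to 7046 to 11690 CPM at 22 °C and 12990 to 16780 CPM at 10 °C, with 2 of 4 called higher, and skeletal muscle markers to 5646 to 8097 and 2202 to 4682 CPM with none called. Hepatocyte markers summed to 166 to 372 CPM at 22 °C and 118 to 174 CPM at 10 °C, with 3 of 4 called lower, and epididymis markers were at 0 in every library at 22 °C and at 2.62, 2.45 and 26.9 CPM at 10 °C, with 2 called higher. Their part in the result was not tested.

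At 34 °C the iBAT members moved the other way. Of 76 members, 34 were called lower and 0 higher, against 15.4% of all 12331 genes called lower. At an unadjusted p under 0.05, 47 were lower and 1 higher, edgeR's exact test called 20 lower and 0 higher, and DESeq2 called 41 lower and 0 higher. These counts, and those by library size below, have no share of all genes beside them. By the quasi-likelihood F-test, 15.4% of all genes were lower and 13.5% higher. By the study's limits 7 were lower, against 7.19% of all genes. The member median was -0.30 (a fold of 0.811) and 68 of 76 lay below 0, while the median of all genes was 0.02. The summed level was 7261, 6383 and 6967 CPM at 22 °C and 5075, 5858 and 5870 CPM at 34 °C, a difference of -18.5% with no overlap. Scaling by library size alone raised the median of all genes to 0.30. The member median was then -0.03, which is 0.33 below that of all genes, as with TMM, and 7 members were called lower and 7 higher (Mrpl23, Mrpl52, Mrps6, Mrps9, Mrps18c, Mrps25 and Mrps30, named after their values were seen).

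Mrpl20 had the largest fall, from 148.8, 116.4 and 131.5 CPM at 22 °C to 56.6, 83.8 and 67.0 CPM at 34 °C (log2 fold change -0.93, SE 0.16, adjusted p = 0.00692). Mrps27 went from 97.3, 87.9 and 86.7 to 47.3, 52.1 and 51.4 CPM (-0.85, SE 0.08, adjusted p = 0.00140). Mrps2 went from 124.9, 106.5 and 109.4 to 64.6, 67.3 and 69.1 CPM (-0.76, SE 0.09, adjusted p = 0.00227). For Mrps27 and Mrps2 the spread within the warm group was small beside the gap to 22 °C. That of Mrpl20 was wide, with 83.8 and 116.4 CPM as its closest libraries. Mrps23, a small subunit protein gained in mitochondria, stood at 138.9, 127.3 and 133.9 against 67.6, 87.5 and 82.2 CPM (-0.75, SE 0.11, adjusted p = 0.00447), and Mrpl50 at 98.6, 105.9 and 107.2 against 55.5, 65.4 and 65.2 CPM (-0.74, SE 0.09, adjusted p = 0.00276). Mrps18b, 1 of 3 mammalian relatives of bacterial S18, was at 54.0, 55.7 and 56.0 against 36.6, 38.1 and 38.4 CPM (-0.55, SE 0.07, adjusted p = 0.00270), the narrowest groups of those named.

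Further falls were those of Mrpl46 (-0.61), Mrps22 (-0.60), Mrpl32 (-0.58), whose bacterial counterpart is L32, and Mrpl40 (-0.52), with adjusted p values from 0.00718 to 0.0166. None of the 34 had overlapping groups, as was so for 99.95% of all genes called lower. Of the 76 members, 50 were lower without overlap (65.8%), against 24.6% of all genes. Mrpl23 was the 1 member higher at an unadjusted p under 0.05 (log2 fold change 0.30, adjusted p = 0.0634), and its groups did not overlap either. Leaving out each library in turn left 15 to 33 members called lower and a member median from -0.37 to -0.24. Without replicate 1 at 22 °C the count was 15, without replicate 3 at 22 °C 17 and without replicate 1 at 34 °C 16. Brown adipocyte markers summed to 9559 to 12640 CPM at 22 °C and 4606 to 5986 CPM at 34 °C, with 2 of 4 called lower, and hepatocyte markers to 102 to 125 and 178 to 416 CPM, with 1 called higher. Of the adipocyte markers 1 was called higher and 1 lower, of the enterocyte markers 1 lower and of the red cell precursor markers 1 higher. Skeletal muscle markers were at 0.70, 4254 and 6.6 CPM at 22 °C and at 3359, 921 and 1019 CPM at 34 °C. Their part in the result was not tested.

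**Figure D2:**
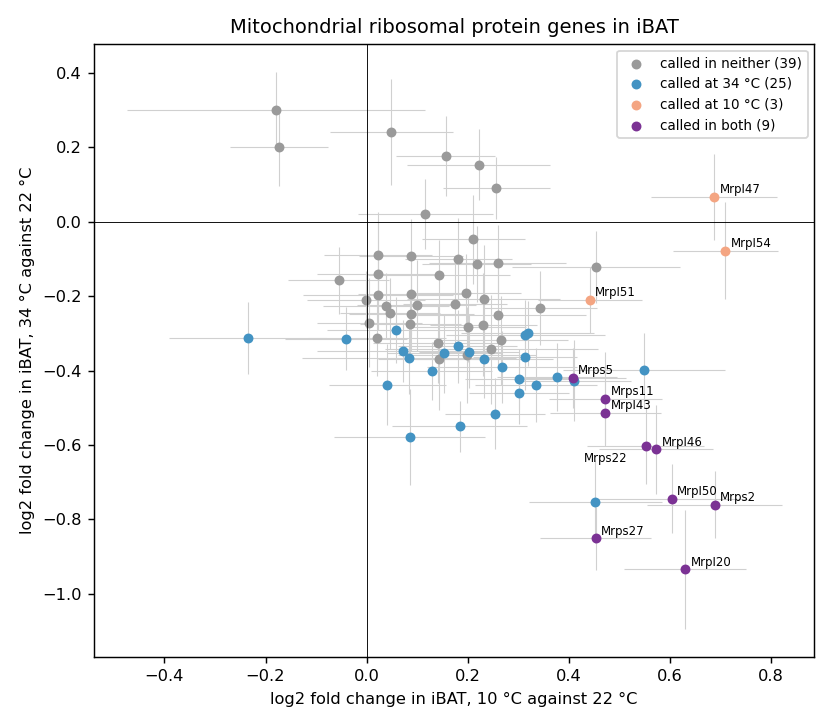
Log2 fold change of each of 76 members in iBAT at 34 °C (vertical) against that in iBAT at 10 °C (horizontal), each against its own 22 °C libraries, with 1 point a member, bars of 1 SE and colours for the comparisons in which it was called. The points run from upper left to lower right (Pearson r = -0.48), with Mrpl20 far down at -0.93 and Mrpl54 far to the right at 0.71.

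Of the members called in iBAT at 10 °C, 9 were also called lower at 34 °C, which is 75% of the 12 and 26.5% of the 34. Over all 11155 genes tested in both, 300 were called in these directions, 43.1% of those higher at 10 °C and 16.9% of those lower at 34 °C. The exceptions were Mrpl47 (0.07 at 34 °C), Mrpl54 (-0.08) and Mrpl51 (-0.21). Cold iBAT and cold ingSAT shared 8 called members, 66.7% of 12 and 32% of 25, and cold ingSAT and warm iBAT shared 11, 45.8% of 24 and 32.4% of 34, since Mrpl57 is under another symbol in the warm table. The shares over all genes were 24.7% and 29.7% for the first of these pairs and 52.04% and 17.3% for the second. No test of these overlaps was run. These comparisons have no library in common, but the iBAT and ingSAT libraries of the cold set may come from the same mice. Across 76 members the fold changes of iBAT at 10 and 34 °C had a Pearson r of -0.48 (Spearman -0.43), and over 11155 genes r was -0.29. For iBAT and ingSAT in the cold r was 0.28 over 78 members and 0.34 over all genes. Members share libraries and are not independent points.

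Called in all 3 were Mrpl20, Mrpl46, Mrpl50, Mrps2, Mrps11 and Mrps22. On GRCm38 (GENCODE M21) these genes lie at chr4:155802878-155809975 (Mrpl20, ENSMUSG00000029066), chr7:78775236-78783531 (Mrpl46, ENSMUSG00000030612), chr4:49512596-49521093 (Mrpl50, ENSMUSG00000044018), chr2:28468066-28471178 (Mrps2, ENSMUSG00000035772), chr7:78783119-78792989 (Mrps11, ENSMUSG00000030611) and chr9:98588730-98601660 (Mrps22, ENSMUSG00000032459). Mrpl46 stood at 33.4, 34.6 and 41.0 CPM in iBAT at 22 °C and at 53.6, 54.1 and 54.6 CPM at 10 °C. In ingSAT it went from 17.1, 15.7 and 16.1 to 27.99, 27.98 and 27.4 CPM, and in the warm set from 57.2, 43.9 and 48.4 to 29.6, 35.6 and 32.6 CPM. The cold libraries of both fats were nearly equal among themselves. Mrps11 stood at 23.1, 23.5 and 25.6 against 31.2, 36.1 and 33.1 CPM in cold iBAT, at 14.3, 15.8 and 14.03 against 22.9, 21.3 and 22.5 CPM in cold ingSAT, and at 37.2, 30.3 and 28.3 against 20.7, 23.6 and 24.6 CPM in warm iBAT.

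**Figure D3:**
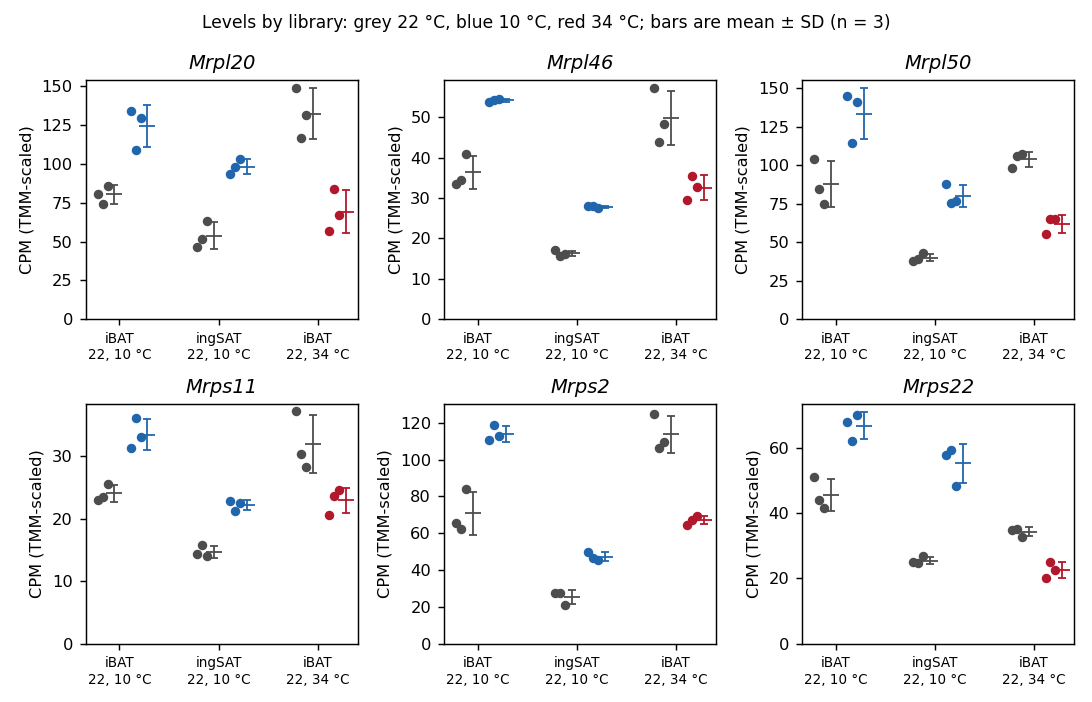
CPM of the 6 members called in all 3 comparisons, in each library at 22 °C and at 10 or 34 °C, for iBAT at 10 °C, ingSAT at 10 °C and iBAT at 34 °C, with 1 point a library and bars for the mean ± SD of each group (n = 3). No group overlaps its 22 °C group, and the points at 10 °C lie above and those at 34 °C below it.

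The difference between tissues was tested by the interaction in 1 fit over 12 libraries. The study took several tissues from its groups of mice, and the fit had no term for the animal. Libraries of 2 tissues that came from the same mice were thus treated as independent. Shares of all genes are given for edgeR only. The response to cold was larger in ingSAT than in iBAT for 8 of 78 members, against 2.3% of all 13631 genes higher in that test, and smaller for 0. The median of the differences was 0.27 against 0.03 over all genes, with 65 of 78 above 0, and DESeq2 called 12 higher and 1 lower. Mrpl30 (1.02), Mrpl42 (0.97) and Mrpl35 (0.87) had the largest differences. The response to warmth was lower in iBAT than in quadriceps for 15 of 76 members, against 4.49% of all 12392 genes lower, and higher for 0. Here the median of the differences was -0.30 against 0.05 over all genes, DESeq2 called 33 lower and 0 higher, and Mrps27 (-0.92) and Mrpl20 (-0.84) led.

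Members were then split by their descent. In cold ingSAT, 12 of 30 large subunit proteins with a bacterial counterpart and 8 of 21 without one were called (median log2 fold changes 0.52 and 0.38), with 3 of 16 and 2 of 10 in the small subunit (0.47 and 0.42). In cold iBAT these counts were 2 of 30, 5 of 21, 3 of 16 and 2 of 10, with medians of 0.19, 0.27, 0.23 and 0.15. In warm iBAT 11 of 30, 8 of 21, 8 of 16 and 7 of 10 were lower, with medians of -0.28, -0.31, -0.29 and -0.36. Over all genes, 4.61% were called higher in cold ingSAT, 6.22% higher in cold iBAT and 15.4% lower in warm iBAT. No test of the difference between these classes was run. Mrps36, which belongs to the 2-oxoglutarate dehydrogenase complex rather than to the ribosome in spite of its name, was counted apart. It stood at 9.81 ± 1.30 (SD, n = 3) and 8.33 ± 0.10 CPM in iBAT at 22 and 10 °C and was not called (log2 fold change -0.24, adjusted p = 0.360), whereas at 34 °C it fell from 107.9, 100.6 and 113.5 to 78.3, 87.6 and 93.3 CPM (-0.31, adjusted p = 0.0469).

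Members with a role beyond the core varied. Mrpl12 rose in cold ingSAT but had log2 fold changes of 0.25 in cold iBAT (adjusted p = 0.489) and -0.34 in warm iBAT (adjusted p = 0.115). Mrpl58, which frees stalled ribosomes by cutting the peptide from its tRNA, was at 43.5 ± 2.495 and 55.6 ± 1.39 CPM in iBAT at 22 and 10 °C (0.35, adjusted p = 0.0556). Of the 3 relatives of bacterial S18, Mrps18a sits in the large subunit, and Mrps18b and Mrps18c in the small one. In cold ingSAT their log2 fold changes were 0.27, 0.50 and 0.62 (adjusted p from 0.0904 to 0.163). In warm iBAT those of Mrps18a and Mrps18c were -0.21 and 0.02, and neither was called.

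Other lists were read for comparison. The cytosolic ribosomal protein genes, which encode the ribosome of the main translation machinery, summed in ingSAT to 8.32% more at 10 °C. Of 74 tested, 0 were called by edgeR and 0 had an unadjusted p under 0.05, and their median was 0.18. One library stood apart there, replicate 3 at 22 °C, with 8583 CPM against 4903 and 4890 in the other two. In cold iBAT 2 of 71 were lower (median -0.13), against 5.07% of all genes called lower, and in warm iBAT 28 of 71 were higher (0.37), against 13.5% of all genes called higher. The cytosolic list stood at unlike levels in these tables. In iBAT at 22 °C its mean sum was 3833 CPM in the cold comparison and 18770 CPM in the warm one, beside 4761 and 6870 CPM for the members. The cause was not tested. The nuclear genes of complex I, the entry enzyme of the respiratory chain that holds several mitochondrially made subunits, were higher in cold ingSAT for 32 of 36 (median 0.88). Of all genes, 4.61% were called higher in cold ingSAT. In cold iBAT 1 of 36 was higher (0.18), against 6.22% of all genes. In warm iBAT 6 of 35 were lower (-0.19), against 15.4% of all genes. Summed levels of complex I differed by 88.9%, 11.2% and -11.5%, beside 43.9%, 18.3% and -18.5% for the members.

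**Figure D4:**
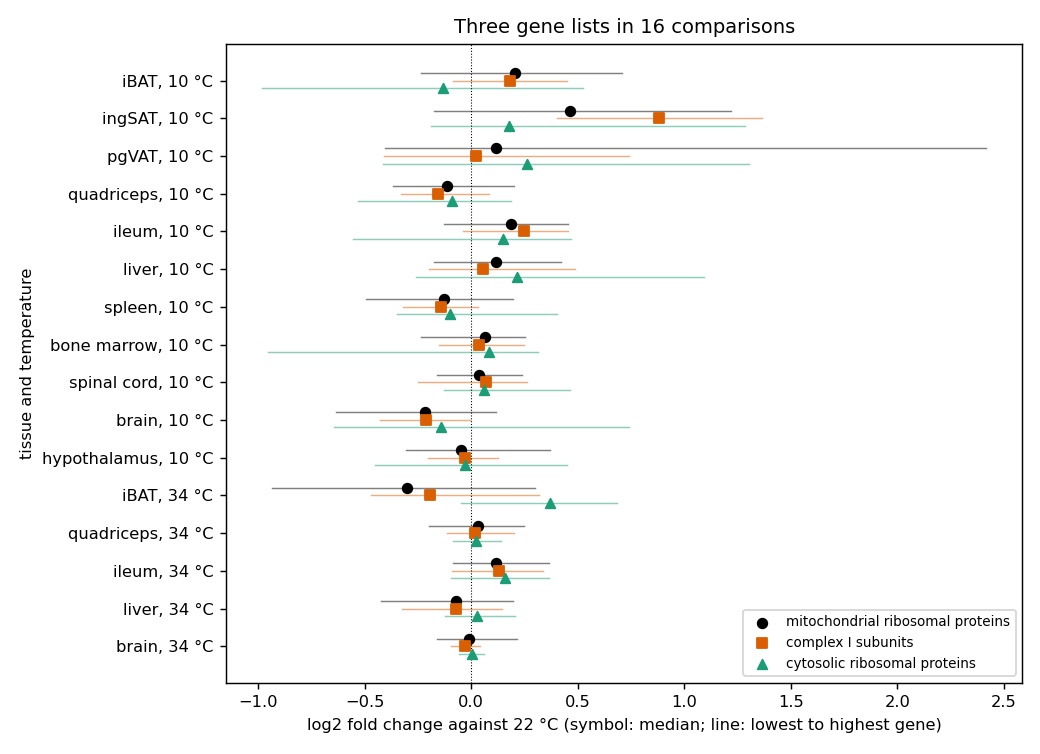
Median log2 fold change of the mitochondrial ribosomal proteins, the cytosolic ribosomal proteins and the complex I genes in the 16 comparisons against 22 °C, as symbols on lines that run from the lowest to the highest gene of the list. In warm iBAT the members stood at -0.30 and the cytosolic list at 0.37, and in cold ingSAT complex I stood at 0.88 above the members at 0.46.

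A list of assembly factors of the mitochondrial ribosome, which also holds Bola3, was read in the same way. In cold ingSAT 5 of 22 were higher: Bola3 (1.22), needed for iron-sulphur clusters, Fastkd2 (1.06), which acts on the large ribosomal RNA, the RNA methyltransferase Mrm3 (0.87), and Nsun4 (0.57) and Mterf4 (0.52), which work as a pair. In cold iBAT 2 of 22 were higher, a count near the share of all genes (6.22%). They were Bola3 (0.60, adjusted p = 0.0108) and Nsun4 (0.52, adjusted p = 0.0457). In warm iBAT 6 were lower, led by Ftsj2 (-0.73, now Mrm2), Fastkd2 (-0.71), Gtpbp5 (-0.48, now Mtg2) and Nsun4 (-0.47), and 1 was higher, Ngrn (0.38). Shares of all genes called were 4.61% (cold ingSAT, higher), 6.22% (cold iBAT, higher), 15.4% (warm iBAT, lower) and 13.5% (warm iBAT, higher). Ptcd3, a ribosomal protein of the small subunit whose symbol is outside the name rule, had a log2 fold change of 0.98 in cold ingSAT and -0.59 in warm iBAT and was called in both. In cold iBAT edgeR called 0 of the 5 proteins of that kind, and 3 were higher at an unadjusted p under 0.05.

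Of 14 mitochondrial translation factors, the initiation factor Mtif2 was higher in cold ingSAT (0.74), and the recycling factor Mrrf (0.54) and the activator of Cox1 translation Taco1 (0.49) in cold iBAT. In warm iBAT 8 were lower, led by Taco1 (-0.62), the elongation factor Gfm1 (-0.50), Mtif3 (-0.50) and Gfm2 (-0.48). Of 12 regulators, 6 were higher in cold ingSAT, among them the coactivators Ppargc1b (1.08) and Ppargc1a (0.97), the mitochondrial transcription factor Tfb2m (0.97) and the receptor Esrra (0.78). In cold iBAT the called regulator went the other way from the members: Ppargc1b was lower (-0.63, adjusted p = 0.0373), and Ppargc1a had a log2 fold change of -0.91 that was not called (adjusted p = 0.0646). In warm iBAT Ppargc1a (-1.45), Tfb2m (-0.74), the RNA polymerase Polrmt (-0.69) and Yy1 (-0.28) were lower, and Myc (1.59) and Nrf1 (0.45) were higher. Of all genes, 4.61% were called higher in cold ingSAT, and 6.22% higher and 5.07% lower in cold iBAT. In warm iBAT 15.4% of all genes were lower and 13.5% higher.

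In the other tissues few or no members were called. In pgVAT at 10 °C edgeR called 0 of 78, against 0.0% of all genes. One had an unadjusted p under 0.05, against 8.12% of all genes, edgeR's exact test called 0 and DESeq2 1. The member was Mrpl37, a large subunit protein gained in mitochondria, at 38.3, 44.0 and 53.0 CPM at 22 °C and at 354.6, 45.2 and 323.1 CPM at 10 °C (log2 fold change 2.42, SE 0.70, adjusted p = 0.593). Replicates 1 and 3 at 10 °C were high and replicate 2 lay within the range of 22 °C. In the same libraries the epididymis markers summed to 2582, 864 and 482 CPM at 22 °C and to 13860, 2.04 and 15990 CPM at 10 °C, and the part of this in the result was not tested. Without replicate 2 at 10 °C, Mrpl37 was called. The member median was 0.12, with 61 of 78 above 0, against 0.03 and 52.7% over all genes. Single libraries moved it: it was 0.05 with 48 above 0 without replicate 3 at 22 °C, 0.27 with 71 above 0 without replicate 2 at 22 °C, and 0.07 with 51 above 0 without replicate 2 at 10 °C.

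Quadriceps showed no called member at either temperature by edgeR. At 10 °C 0 of 76 were called (0.0253% of all genes), 1 had an unadjusted p under 0.05 (10.6% of all genes), Mrps10 (log2 fold change -0.34, adjusted p = 0.466), and the exact test and DESeq2 called 0. Of the 76, 21 lay above 0, with a median of -0.11. This was -0.01 with 34 above 0 without replicate 1 at 22 °C, and -0.06 with the other 3 control libraries. With scaling by library size alone the median of all genes was 0.25 and the member median 0.12, so that its direction flipped, and it stayed 0.13 below all genes. At 34 °C 0 were called (0.0% of all genes), 1 had an unadjusted p under 0.05 (4.14% of all genes), Mrpl17 (0.25, adjusted p = 0.9999), and the exact test and DESeq2 called 0. Here the member median of 0.03 had no stable direction: it was -0.0118 without replicate 3 at 22 °C, -0.0046 without replicate 1 at 34 °C, -0.0124 with library size alone and -0.0256 with the other 3 control libraries.

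In the ileum at 10 °C, 72 of 78 members lay above 0 with a median of 0.18, against 48.7% and -0.01 over all genes, but edgeR called 0 (0.0639% of all genes). At an unadjusted p under 0.05, 22 members were higher and 0 lower (17.1% of all genes, either direction). The exact test called Mrpl12, and DESeq2 called Mrpl12, Mrps24 and Mrpl46. Mrps24, a small subunit protein, had the smallest p, with 28.3, 28.9 and 28.8 CPM at 22 °C and 37.4, 34.5 and 37.1 CPM at 10 °C (log2 fold change 0.34, adjusted p = 0.104). Its groups did not overlap. At 34 °C, 69 of 76 lay above 0 with a median of 0.12, edgeR, the exact test and DESeq2 called 0 (0.0% of all genes by edgeR), and 7 had an unadjusted p under 0.05, all higher (7.76% of all genes). Mrpl23 had the smallest p (0.36, adjusted p = 0.594). Without replicate 2 at 34 °C the median was 0.06.

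In the liver at 10 °C, 69 of 77 members lay above 0 (median 0.11, all genes 0.01), edgeR, the exact test and DESeq2 called 0 (0.0% of all genes by edgeR), and 10 were higher and 0 lower at an unadjusted p under 0.05 (18.6% of all genes). Mrps17, the counterpart of bacterial S17, had the smallest p (0.24, adjusted p = 0.145). Mrps36 was below the filter on low values. At 34 °C 15 of 76 lay above 0 (median -0.07, or -0.12 without replicate 3 at 34 °C), edgeR, the exact test and DESeq2 called 0 (0.385% of all genes by edgeR), and 4 were lower at an unadjusted p under 0.05 (11.2% of all genes): Mrpl16 (-0.27, adjusted p = 0.300), Mrpl41 (-0.26), Mrps25 (-0.29) and Mrpl34 (-0.43), of which the last 3 were named after their values were seen.

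In the spleen at 10 °C edgeR, the exact test and DESeq2 called 0 of 78 (0.0779% of all genes by edgeR), and 7 were lower and 0 higher at an unadjusted p under 0.05 (10.0% of all genes). The median was -0.13 with 14 above 0, and Mrpl57 had the smallest p (-0.33, adjusted p = 0.485). Without replicate 3 at 22 °C the median was -0.02 with 30 of 78 above 0. Neutrophil precursor markers went from 33.5, 47.0 and 57.8 to 3.84, 9.78 and 7.44 CPM, with 1 of 4 called lower, and their part in these values was not tested.

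In bone marrow, with 6 libraries a group, 1 of 75 members was higher, against 7.33% of all genes, and 1 lower, against 11.6%. Mrpl38 ran from 20.2 to 25.3 CPM (median 23.03) at 22 °C and from 26 to 29.6 CPM (median 26.7) at 10 °C (log2 fold change 0.25, SE 0.06, adjusted p = 0.0126), without overlap. Mrpl33, named after its values were seen, ran from 56.1 to 76.4 CPM (median 67.8) and from 53.6 to 60.8 CPM (median 57.5), with overlap (-0.24, SE 0.06, adjusted p = 0.0165). Both are large subunit genes. Over all members the median was 0.06, or 0.04 without replicate 1 at 10 °C. Of the companion lists, Mrm1 (0.21), Gadd45gip1 (0.20) and Mrrf (0.26) were higher there and Rbfa (-0.14) lower, all with overlapping groups. Mrpl23 was below the filter on low values. Cell markers moved in the same libraries: red cell precursor markers ran from 8142 to 10340 CPM at 22 °C and from 10630 to 13600 CPM at 10 °C, without overlap and with 4 of 4 called higher. B cell markers ran from 386 to 541 and from 539 to 623 CPM (3 of 4 higher), and neutrophil precursor markers from 2862 to 3676 and from 2565 to 3035 CPM (2 of 4 lower). Of the adipocyte markers 1 was higher and of the oligodendrocyte markers 1 lower. Their part in the result was not tested.

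In the brain at 10 °C edgeR, the exact test and DESeq2 called 0 of 78 (0.0% of all genes by edgeR). At an unadjusted p under 0.05 Mrpl54 (-0.28, adjusted p = 0.707) and Mrpl12 (-0.63, named after its values were seen) were lower (3.88% of all genes). Both folds include the replicate with hepatocyte markers, and its part in them was not tested. The member median was -0.22 with 4 of 78 above 0, against -0.02 and 47.5% over all genes. Without the replicate with hepatocyte markers, it was -0.09 with 10 of 78 above 0, and edgeR called 0. With library size alone and that replicate included, the median of all genes was 0.10 and that of the members -0.06. At 34 °C the median was -0.01 and ran from -0.06 without replicate 3 at 34 °C to 0.02 without replicate 1 at 34 °C. Of the members, 0 of 76 were called by edgeR, the exact test or DESeq2 (0.0% of all genes by edgeR), and 0 had an unadjusted p under 0.05 (2.64% of all genes). In the hypothalamus 0 of 78 were called by any of these (0.0% of all genes by edgeR), and 5 were lower and 0 higher at an unadjusted p under 0.05 (6.18% of all genes): Mrpl40 (-0.25, adjusted p = 0.757), and, named after their values were seen, Mrps28, Mrpl50, Mrpl58 and Mrpl16, at -0.30 to -0.17. The median was -0.05, or -0.08 without replicate 3 and -0.03 without replicate 1 at 10 °C.

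In the spinal cord 0 of 74 were called by edgeR, the exact test or DESeq2 (0.00695% of all genes by edgeR), 1 had an unadjusted p under 0.05, Mrpl45 (0.12, adjusted p = 0.780), against 5.79% of all genes, and the median was 0.04, or 0.01 without replicate 4 and 0.02 without replicate 1 at 10 °C. Mrpl23 and Mrps36 were below the filter on low values. One library at 10 °C, replicate 4, had oligodendrocyte markers at 20890 CPM, against 26200 to 27250 CPM in the others at 10 °C and 26450 to 32680 CPM at 22 °C. It was also the library with the highest Mrpl12, and the part of this in the result was not tested.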

How the data were processed

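Per the labels and the study's methods, mRNA of 106 tissue samples was sequenced, with the NEBNext Ultra kit for the 8 tissues of the largest table and a stranded TruSeq kit, on another Illumina instrument, for bone marrow, spinal cord and the warm set. The authors aligned reads to mm10 and deposited raw gene counts in 4 tables, whole numbers without scaling. The submitters' processing notes name STAR 2.5.3a, HTSeq 0.6p1 and Picard 1.141, while the paper's methods name other STAR and HTSeq versions. Alignment and counting were not repeated. Identifiers of the largest table were matched to symbols (21583 of 21647).

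From these counts, every comparison was fitted separately, with only the libraries compared, in edgeR 4.0.16 (R 4.3.3): TMM factors, average log2 CPM above 0, quasi-likelihood F-test, two-sided, Benjamini-Hochberg adjustment over all genes tested. No p was adjusted across the 16 comparisons. SEs were derived from the fold change and F. Alternatives were edgeR's exact test, DESeq2 1.42.0, other scalings and filters, the study's limits, other quadriceps controls, the replicate number as a block, 1 fit per table and single libraries left out. Scripts were tested on simulated data.

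The members and lists were chosen with earlier results of these data known, and the cytosolic ribosomal protein and complex I lists were added last. Named were the 10 called members of largest absolute log2 fold change with groups that do not overlap (up to 3 where fewer than 10 were called, and where none was called, the member of smallest p), the members with set roles, and up to 4 called genes of each companion list. Quadriceps controls at 22 °C are not divided by the labels. They were split by the prefix of their names, which matched the group means listed by the authors (1999 of 1999 genes). Other columns of the authors' comparison tables, their fold changes and p-values, were not used. The labels name 34 °C in the treatment protocol of every sample, so temperature was taken from each sample's own label. Most libraries pool 2 mice, so p-values measure the spread between pools. An exact permutation of 3 against 3 libraries cannot go below p = 0.1, and none was run. Counts carry no molecular barcodes. Cold and warm mice came from different suppliers, and no main comparison crosses them. The alternative quadriceps controls and the iBAT levels at 22 °C set side by side from separate tables do.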

Additional observations from a re-analysis of the deposited data

Results flagged for a closer look

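Mrpl12 in spinal cord at 10 °C had 1 library far from the others of its group: replicate 4 stood at 88.97 CPM, against 52.8 to 59.14 CPM in the other 4. In bone marrow and spinal cord, the tissues with over 3 libraries a group, 28 sets of values of 1 named member in 1 group were looked at. This was the only such library. With 28 sets looked at, which share libraries, 1 may arise by chance. The same library had the lowest oligodendrocyte markers of its group.

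The effect of cold differed between ingSAT and iBAT for 8 members by edgeR's interaction test, all with a larger log2 fold change in ingSAT. The differences were 1.022 for Mrpl30, 0.9712 for Mrpl42, 0.8668 for Mrpl35, 0.7562 for Mrpl15, 0.6905 for Mrpl41, 0.6763 for Mrps16, 0.6688 for Mrpl34 and 0.5625 for Mrpl55. Of these 8, 7 are named Mrpl, for the large subunit, as are 49 of all 78 members.

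The effect of 34 °C differed between iBAT and quadriceps for 15 members, all lower in iBAT. The largest differences were those of Mrps27 (-0.9228), Mrpl20 (-0.8353), Mrpl50 (-0.7713), Mrps23 (-0.7174), Mrps2 (-0.689), Mrpl46 (-0.6818) and Mrpl40 (-0.6178). Mrpl17 (-0.5798), Mrps22 (-0.5542), Mrps18b (-0.5525), Mrpl3 (-0.5509), Mrpl43 (-0.5285), Mrpl37 (-0.5036), Mrpl16 (-0.4822) and Mrps7 (-0.3951) followed. In this comparison quadriceps itself had 0 members called by edgeR, 1 at an unadjusted p under 0.05, and 0 by the exact test or DESeq2.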

How the results depend on the processing

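Across the alternatives, the 599 values of single named members kept their sign in every case, 538 of them on the same side of the threshold, with 57 no longer called and 4 newly called. These members had been picked for large folds without overlap or for the smallest p. A kept sign was thus largely fixed in advance and says little about the other members. Library size alone in place of TMM gave 5 members higher in iBAT at 10 °C (median 0.0498), 7 higher and 7 lower in iBAT at 34 °C (median -0.0324), 5 higher in bone marrow, and medians of 0.1247 and -0.0124 in quadriceps at 10 and 34 °C, -0.0629 in brain at 10 °C and -0.1441 in liver at 34 °C. The study's limits gave 5 higher in iBAT and 1 in pgVAT at 10 °C, 0 higher and 0 lower in bone marrow, 1 lower in brain at 10 °C and 7 lower in iBAT at 34 °C. The exact test gave 1 higher in ileum at 10 °C and 20 lower in iBAT at 34 °C. DESeq2 gave 1 higher in pgVAT, 3 in ileum and 2 in bone marrow, and 33 lower in the difference between iBAT and quadriceps. A shared spread over the table gave 43 higher in ingSAT and 6 in pgVAT (Mrpl37, Mrpl52, Mrpl41, Mrpl24, Mrps35 and Mrpl46, named after their values were seen). The cause was not tested.

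With single libraries left out in turn, 1 to 18 members were higher in iBAT and 1 to 47 in ingSAT at 10 °C, 0 to 1 in pgVAT, 0 to 1 in liver (Mrps24 without replicate 3 at 22 °C) and 1 to 5 in bone marrow, and 15 to 33 were lower in iBAT at 34 °C. The ingSAT median ran from 0.4285 to 0.5428. A fit with the replicate number as a block gave 11 members higher in ingSAT and 15 in iBAT and changed no other count at 10 °C. The numbers do not pair the libraries: same-numbered libraries had correlations of -0.37 to 0.19 in ingSAT and -0.14 to 0.47 in iBAT, in no tissue were all above 0.1, and no tissue had over 2 pairs that matched best with their own number. No block was fitted for quadriceps or at 34 °C.

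With 3 libraries a group, small folds were at the limit of what could be called. The median SE of a member's log2 fold change in iBAT at 10 °C was 0.119, beside a median fold change of 0.207.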
